A study of Homo sapiens with 2 samples.

Results

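Proteins that leave the endoplasmic reticulum (ER) are carried between membranes in vesicles, and the genes described here encode the protein complexes that shape, load and dock those vesicles. They were chosen by symbol. The set holds the COPI coat genes, the COPII coat and SEC22 genes, and the TRAPP, COG and exocyst tether genes. It also holds the subunit genes of the adaptor complexes AP-1 to AP-4. The rule found 75 genes of the 12918 in the table, and 73 of them were past a filter of at least 1 FPKM in 1 or both libraries (FPKM, fragments scaled to transcript length and library size). TRAPPC6A and AP3B2 were not past it. A further 6 coding genes that the rule covers in the annotation had no listed transcript and were not analysed here. The rule used no measured value, but the members were chosen with earlier results of these data known.

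COPII coats bud vesicles from the ER towards the Golgi, and COPI coats return proteins and lipids from the Golgi to the ER. TRAPP and COG catch vesicles at the Golgi, and the exocyst catches them at the plasma membrane, where in breast cancer cells it is known to help deliver proteases to invasive protrusions. The AP adaptors select cargo at the trans-Golgi network, endosomes and plasma membrane.

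The cells were MDA-MB-231, an established line from a human breast tumour of the triple-negative class, grown in L15 medium with serum. In 1 library they had received the THAP7-AS1 Smart Silencer, a blend of siRNAs and antisense oligonucleotides against a long noncoding RNA, and in the other Si-NC as control. Both were sampled at 48 h and measured by RNA-seq. The table has 2 columns. The column headed si-v was taken as the silencer library by elimination, since the other is headed si-nc, and every direction below depends on that. With 1 library per group there is no replicate check and no test of a difference between the conditions, so all values describe these 2 libraries.

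None of the 3 annotated THAP7-AS1 transcripts was listed, so the silencing was not checked. The mesenchymal marker VIM stood at 373 FPKM in the si-v library and 344 in the control, and MSN, KRT8 and KRT18 were likewise slightly higher in the si-v library. CD44 stood at 114 and 152, EGFR at 39.4 and 53.5, CAV1 at 83.7 and 118, and AXL at 204 and 259, all lower in the si-v library. Of the receptors that define the triple-negative class, ESR1 was listed at 0 in both libraries and PGR had no listed transcript. ERBB2 was at 17.4 FPKM in the si-v library and 4.65 in the control. PTPRC, CD3E and PECAM1, markers of leukocytes and endothelium, had no listed transcript, while CD68 stood at 55.0 and 47.8 FPKM and ALB at 17.7 and 17.0. COL1A1, a fibroblast marker, stood at 1.14 and 0.482. In bulk RNA a change in the share of cells that express a gene and a change in RNA per cell cannot be told apart.

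As a set, the coat, adaptor and tether genes had almost the same level in both libraries. Their median was 12.2 FPKM in the si-v library and 12.1 in the control, against 9.29 and 9.44 over all 11046 genes past the filter. The log2 ratio was taken as log2((si-v + 1)/(control + 1)) of FPKM, which understates the difference of low genes. Its median was -0.03 over the members and 0.00 over all genes. The middle part of the members, from the 25th to the 75th percentile, ran from -0.25 to 0.27, against -0.27 to 0.30 over all genes. At 2-fold, 2 members were higher in the si-v library (SEC24C and EXOC3), where 2.37% of all genes were, and 2 were lower (TRAPPC10 and AP3M1), where 2.49% were. That is 5.48% of the members in either direction, against 4.86% of all genes. At 1.5-fold, 8 members were higher, where 9.82% of all genes were, and 3 were lower, where 8.91% were. That is 15.1% of the members in either direction, against 18.7% of all genes, so the members' shares lie near the background. Of the 75 members, 40 share annotated exon sequence with another gene, and with no strand setting stated, reads of a gene and its antisense partner cannot be told apart.

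**Figure D1:**
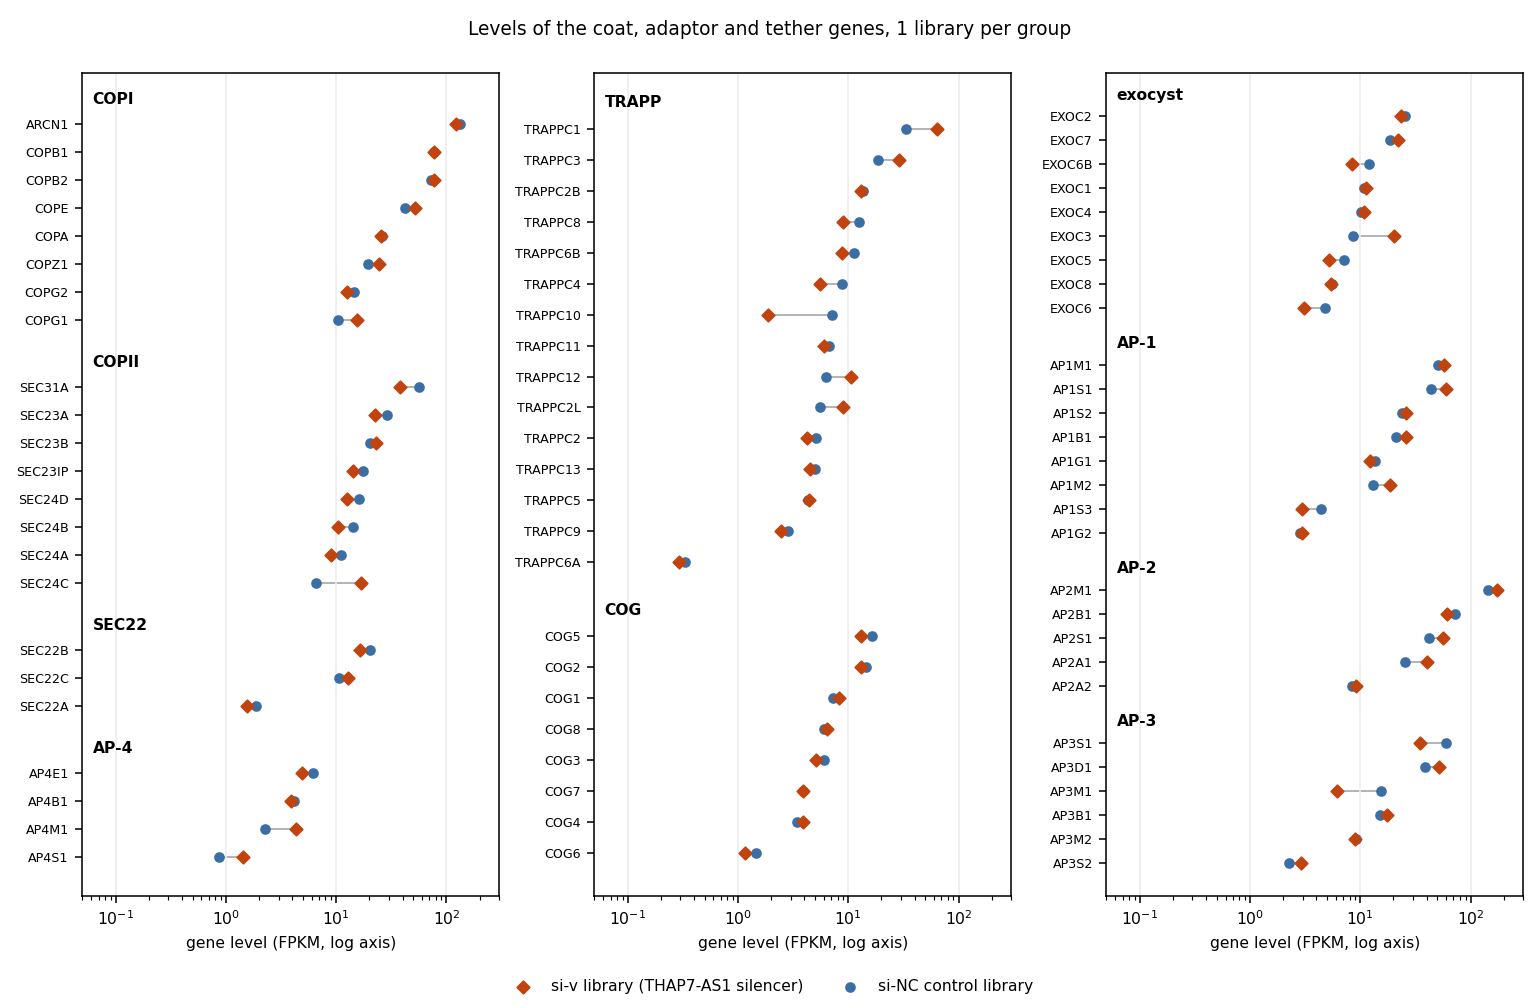
Level of each listed member in FPKM on a log axis, by complex, with the si-v library as diamonds and the si-NC control as circles, 1 library each and no error bars. AP3B2, listed at 0 in both, is left out. Most pairs lie close together; SEC24C, EXOC3 and TRAPPC1 sit to the right in the si-v library, and TRAPPC10, AP3M1 and AP3S1 to the left.

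The COPI coat was even between the libraries. All 8 of its genes were within 1.5-fold, with a median log2 ratio of 0.05 and a summed level of 407 FPKM in the si-v library and 394 in the control. ARCN1, the delta subunit of the coat, had the highest level, at 123 FPKM in the si-v library and 132 in the control. COPB1 (beta subunit) stood at 77.8 and 77.1, COPB2 (beta prime) at 76.5 and 72.4, and COPA (alpha) at 25.5 and 26.2. COPE (epsilon) was at 51.4 and 42.4 FPKM, and COPZ1 (zeta) at 24.3 and 19.4.

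The gamma subunit comes from a pair of paralogues, and these lay on opposite sides. COPG1 stood at 15.5 FPKM in the si-v library and 10.4 in the control, the highest ratio of the coat (log2 0.53). Its 547 and 330 fragments gave log2 0.64, past 1.5-fold, with a 95% interval for counting error of 0.44 to 0.84. COPG2 stood at 12.6 and 14.5, the lowest (-0.19). Its 95% interval for counting error, -0.36 to 0.01, spans both directions. COPG1 thus made up 55.2% of their summed level in the si-v library and 41.9% in the control. The sum itself was close, at 28.1 and 24.9 FPKM.

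In the COPII coat 6 of 8 genes had a ratio below 0, where 5478 of all 11046 genes had. The median log2 ratio was -0.31, and 1 gene was higher at 2-fold, where 2.37% of all genes were. That gene was SEC24C, an adaptor of the inner coat that binds cargo, at 16.9 FPKM in the si-v library and 6.51 in the control (1.25, the highest ratio of all members). It lies on chromosome 10. About 776 fragments in the si-v library and 308 in the control stand behind these levels, and their ratio scaled to all fragments was log2 1.25 with a 95% counting interval of 1.05 to 1.44. Such intervals cover counting error within the libraries only.

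The other cargo adaptors were placed the other way. SEC24A stood at 9.02 FPKM in the si-v library and 10.9 in the control, SEC24B at 10.3 and 14.3, and SEC24D at 12.5 and 16.1. For SEC24A the counting interval, -0.23 to 0.09, spans both directions, and its most abundant transcript gave log2 0.06. SEC24C and SEC24D form a close paralogue pair, and SEC24C was 57.5% of their sum in the si-v library and 28.8% in the control. Of the SEC23 pair, which activates the SAR1 GTPase in the inner coat, SEC23A stood at 22.7 and 29.1 FPKM and SEC23B at 23.1 and 20.1. SEC23IP, a SEC23-binding phospholipase family protein, stood at 14.2 and 17.3.

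SEC31A, which with SEC13 builds the outer cage, had both the highest level and the lowest ratio of the coat, at 38.0 FPKM in the si-v library and 56.9 in the control (log2 -0.57). It fell just short of the 1.5-fold limit, as did TRAPPC4 in the TRAPP complex (-0.58). Just past the limit on the other side were TRAPPC3 and TRAPPC2L, each at 0.61. The SEC22 genes, of which SEC22B encodes a SNARE of ER and Golgi traffic, were all within 1.5-fold. SEC22B stood at 16.5 FPKM in the si-v library and 20.2 in the control, SEC22C at 12.9 and 10.6, and SEC22A at 1.56 and 1.89. SEC22C overlaps NKTR on the opposite strand, and the strand setting of the counting is not given in the sources used here.

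**Figure D2:**
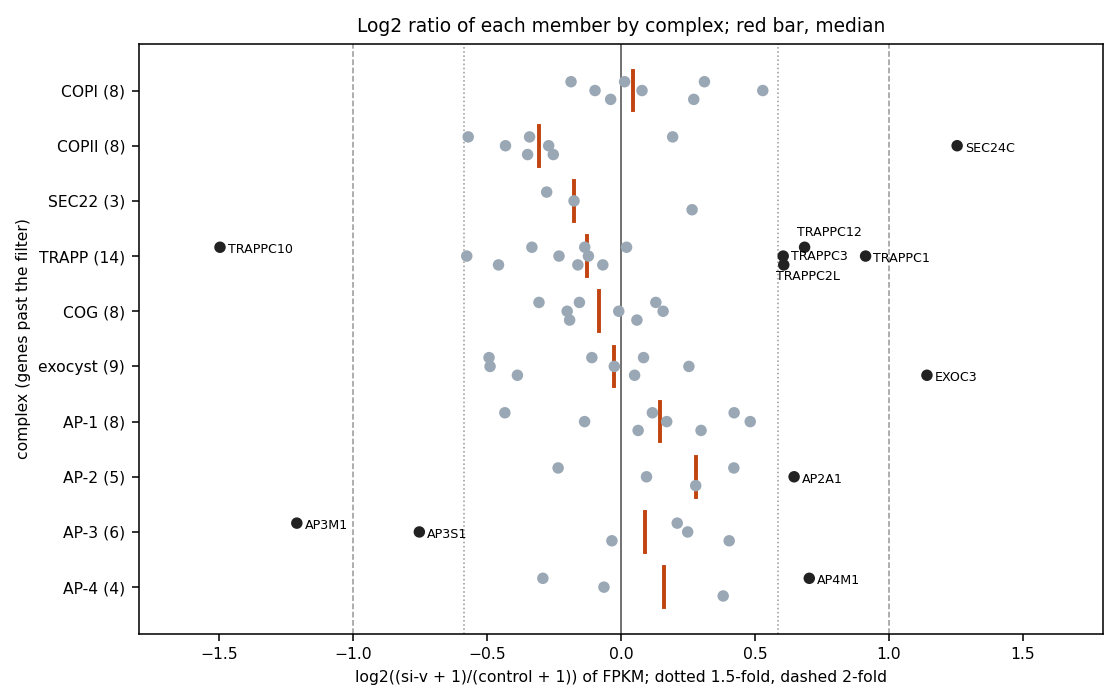
Log2 ratio of si-v over control for the 73 members past the filter, grouped by complex, with the number of genes in brackets. Each point is 1 gene, black and named at 1.5-fold or more. Red bars are medians, from -0.31 in COPII to 0.28 in AP-2, and dotted and dashed lines mark 1.5-fold and 2-fold.

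The TRAPP genes had the widest range of ratios and were also the most numerous. Of 14 past the filter 4 were higher at 1.5-fold, where 9.82% of all genes were, and 1 lower at 2-fold, where 2.49% were. Of the 4, TRAPPC12, TRAPPC3 and TRAPPC2L fell short of 1.5-fold with the GC and length trend removed, as given below. The median of the complex was log2 -0.13, and its summed level was 173 FPKM in the si-v library and 142 in the control. The small core subunits are shared by all forms of the complex. TRAPPC1, which had the highest level, stood at 64.1 FPKM in the si-v library and 33.6 in the control (0.91), and TRAPPC3 at 28.9 and 18.7 (0.61). TRAPPC2L, a further core subunit, stood at 8.96 and 5.54 (0.61). TRAPPC4, also of the core, lay the other way at 5.54 and 8.74, and TRAPPC5 was level at 4.36 and 4.29.

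The subunits that set one form of the complex apart were also split. TRAPPC10, of the TRAPPII form that acts at the trans-Golgi, had the lowest ratio of all members, at 1.88 FPKM in the si-v library and 7.14 in the control (log2 -1.50). Its gene lies on chromosome 21 and had 2 of 2 coding transcripts listed. About 102 fragments in the si-v library and 473 in the control gave a ratio of log2 -2.30, with a counting interval of -2.62 to -1.99. The partner subunit of that form, TRAPPC9, stood at 2.44 and 2.85 FPKM. Of the TRAPPIII form, which acts in early secretion and autophagy, TRAPPC12 stood at 10.6 and 6.24 (0.69), TRAPPC8 at 8.91 and 12.6, TRAPPC11 at 6.04 and 6.66, and TRAPPC13 at 4.46 and 4.999.

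TRAPPC2 and the nearly identical retrogene TRAPPC2B, between which reads may have been divided, stood at 4.19 and 13.0 FPKM in the si-v library and 5.09 and 13.7 in the control. TRAPPC6B stood at 8.80 and 11.3, and TRAPPC6A, its paralogue, at 0.289 and 0.333.

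All 8 COG genes were within 1.5-fold, with a median of log2 -0.08, and the range of their ratios was the narrowest of the complexes with 8 or more genes. COG5 had the highest level and the lowest ratio, at 13.2 FPKM in the si-v library and 16.5 in the control (-0.31). COG1 had the highest ratio, at 8.26 and 7.31 (0.16). COG4 stood at 3.88 and 3.46 (0.13), but its 121 and 71 fragments gave log2 0.68, past 1.5-fold, with a counting interval of 0.25 to 1.13. The others ran from COG6, at 1.17 and 1.47, to COG2, at 13.0 and 14.6. COG8 shares exon sequence with the neighbouring gene PDF.

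Of 9 exocyst genes 8 were within 1.5-fold. The exception was EXOC3, the SEC6 subunit on chromosome 5, at 20.2 FPKM in the si-v library and 8.62 in the control (log2 1.14). Its 594 and 225 fragments gave log2 1.31 with a counting interval of 1.09 to 1.54. EXOC3 overlaps EXOC3-AS1 and SLC9A3 on the opposite strand. The other subunits that it packs with, EXOC1, EXOC2 and EXOC4, stood at 11.2, 23.4 and 10.7 FPKM in the si-v library and at 10.8, 25.3 and 10.1 in the control. EXOC6, the SEC15 subunit that binds RAB GTPases, had the lowest ratio, at 3.10 and 4.77 (-0.49), and its paralogue EXOC6B stood at 8.35 and 12.1 (-0.49). For EXOC6 about 131 and 187 fragments gave log2 -0.59, just past 1.5-fold, with a counting interval of -0.93 to -0.27. EXOC7, a subunit that binds membrane lipids, stood at 22.2 and 18.4, EXOC5 at 5.22 and 7.13, and EXOC8 at 5.39 and 5.50.

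The clathrin adaptors AP-1 and AP-2 had medians above 0, at log2 0.14 and 0.28. AP2M1, the mu subunit that recognises sorting signals at the plasma membrane, had the highest level of all members, at 173 FPKM in the si-v library and 143 in the control (0.28). AP2A1, an alpha subunit, was the 1 AP-2 gene at 1.5-fold, at 40.3 and 25.4 (0.65), while its paralogue AP2A2 stood at 9.09 and 8.44. AP2S1, the small subunit, was at 56.3 and 41.8. AP2B1, the beta subunit that binds clathrin, was the 1 gene below 0, at 61.2 and 72.2 (-0.23).

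No AP-1 gene reached 1.5-fold on its FPKM ratio. AP1M1 stood at 57.7 FPKM in the si-v library and 51.1 in the control, and its paralogue AP1M2, known from polarised epithelial cells, at 18.8 and 13.2 (log2 0.48, the highest of the complex). The small subunit genes AP1S1 and AP1S2 stood at 59.5 and 26.1 FPKM in the si-v library and at 44.2 and 24.02 in the control. AP1S3, with about 36 and 57 fragments, had the lowest ratio, at 2.99 and 4.39 (-0.43). Those fragments gave log2 -0.73, past 1.5-fold, with a counting interval of -1.39 to -0.12. AP1B1 stood at 26.2 and 21.1, AP1G1 at 12.2 and 13.6, and AP1G2 at 2.98 and 2.81.

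In AP-3, which sorts proteins to lysosomes and related organelles, the subunits were spread to both sides. AP3M1, the mu subunit gene on chromosome 10, stood at 6.15 FPKM in the si-v library and 15.5 in the control (log2 -1.21). Its 283 and 526 fragments gave log2 -0.98, with a counting interval of -1.19 to -0.77, and it overlaps VCL on the opposite strand. The small subunit AP3S1 stood at 35.1 and 59.8 (-0.75). The large subunits lay above 0, with AP3D1 at 51.7 and 38.8 (0.40) and AP3B1 at 17.6 and 15.1. The paralogue AP3M2 stood at 8.89 and 9.12, so AP3M1 made up 40.9% of the mu pair in the si-v library and 63.0% in the control. AP3S2 stood at 2.87 and 2.26 FPKM, and the neuronal AP3B2 was listed at 0 in both.

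AP-4, which exports the autophagy protein ATG9A from the trans-Golgi network, was the adaptor of lowest level. Its sum was 14.6 FPKM in the si-v library and 13.5 in the control. AP4M1 stood at 4.29 and 2.25 (log2 0.70), on about 88 and 40 fragments, and shares exon sequence with MCM7 and TAF6 on the opposite strand. AP4E1 stood at 4.90 and 6.22 (-0.29), AP4B1 at 3.93 and 4.15, and AP4S1 at 1.43 and 0.866. For AP4S1 about 72 and 40 fragments gave log2 0.75, past 1.5-fold, with a counting interval of 0.18 to 1.36.

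The ratios of the members went with the GC content of their transcripts. All genes past the filter had a median GC content of 48.7% in their most abundant transcript. Of 28 members at or above it, 25 had a ratio above 0, with a median of log2 0.29, against 0.14 over all genes on that side. Among all 5523 genes on that side, 3486 had a ratio above 0. Of 45 members below it, 35 had a ratio below 0, with a median of -0.19, against -0.12 over all genes on that side. Among all 5523 genes below it, 3441 had a ratio below 0. All 8 members that were higher at 1.5-fold had a GC content above the split, and all 3 lower ones lay below it. Of all genes, 14.7% above the split and 4.92% below it were higher at 1.5-fold. Lower at 1.5-fold were 6.79% of all genes above it and 11% below it. The Spearman correlation between GC content and ratio was 0.65 over the 73 members and 0.33 over all genes. It is given as a description of points that share the same 2 libraries. The COPII genes, with a median ratio of -0.31, had a median GC content of 44.3%, and the AP-2 genes, at 0.28, one of 58.7%. COPI, AP-3 and AP-4 lay the other way, with medians above 0 at 47.3%, 45.1% and 46.4%, as did COG, at -0.08 and 48.9%.

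When a smooth trend with GC content and length over all genes was removed, 3 members stayed higher at 1.5-fold. These were SEC24C at log2 1.21, EXOC3 at 1.03 and TRAPPC1 at 0.73. TRAPPC10 at -1.43, AP3M1 at -1.13 and AP3S1 at -0.73 were still lower, and TRAPPC4, at -0.62, joined them. AP2A1 then stood at 0.46, TRAPPC12 at 0.49, AP4M1 at 0.56, TRAPPC3 at 0.50 and TRAPPC2L at 0.46. The trend removed, 22 of the 28 GC-rich members and 15 of the 45 others had a ratio above 0. The same counts over all genes were not made after the removal.

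**Figure D3:**
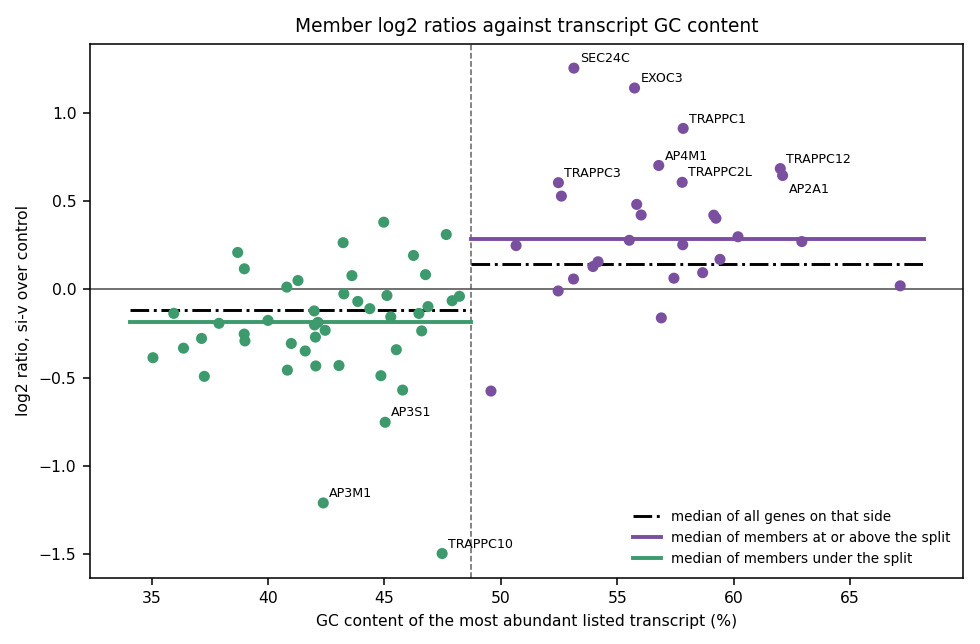
Log2 ratio of si-v over control against the GC content, in %, of the most abundant listed transcript, for 73 members. The dashed line is the median GC content of all genes, 48.7%; coloured lines are the members' medians on each side, 0.29 and -0.19, and dash-dotted lines those of all genes, 0.14 and -0.12.

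The table lists transcripts, 286 for these genes of 429 coding transcripts annotated, and in several members the division among transcripts differed more than the gene level. The leading transcript differed between the libraries in 12 of 65 members with more than 1 listed transcript (18.5%), and in 26.4% of all such genes. The FPKM of single transcripts are estimates from reads that transcripts share, with no measure of their error here.

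COPB2 was level as a gene, but its transcript COPB2-205 was listed at 0 in the si-v library and stood at 33.8 FPKM in the control. COPB2-201 stood at 70.1 FPKM in the si-v library and 36.5 in the control, so the sum of the pair was close. In AP4E1 the leading transcript was AP4E1-203 in the si-v library, at 3.42 FPKM against a listed 0 in the control. AP4E1-201 stood at 1.48 and 6.22. EXOC3-201 stood at 11.2 FPKM in the si-v library and 1.81 in the control, while EXOC3-209 was at 6.64 and 5.30, so the gene's difference lay mostly in 1 transcript.

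TRAPPC3 reached 1.5-fold through TRAPPC3-201, at 10.2 FPKM in the si-v library and 0.130 in the control. That transcript is short, and on fragments per gene, which weigh each transcript by its length, the gene's log2 ratio was 0.31 instead of 0.61. TRAPPC2L was at 0.41 on the same measure. In AP3M1 the lower level lay in AP3M1-202, at 2.75 and 11.3, with AP3M1-201 at 3.40 and 4.21. Both listed transcripts of TRAPPC10 were lower, TRAPPC10-201 at 1.01 and 5.85 and TRAPPC10-202 at 0.876 and 1.29.

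**Figure D4:**
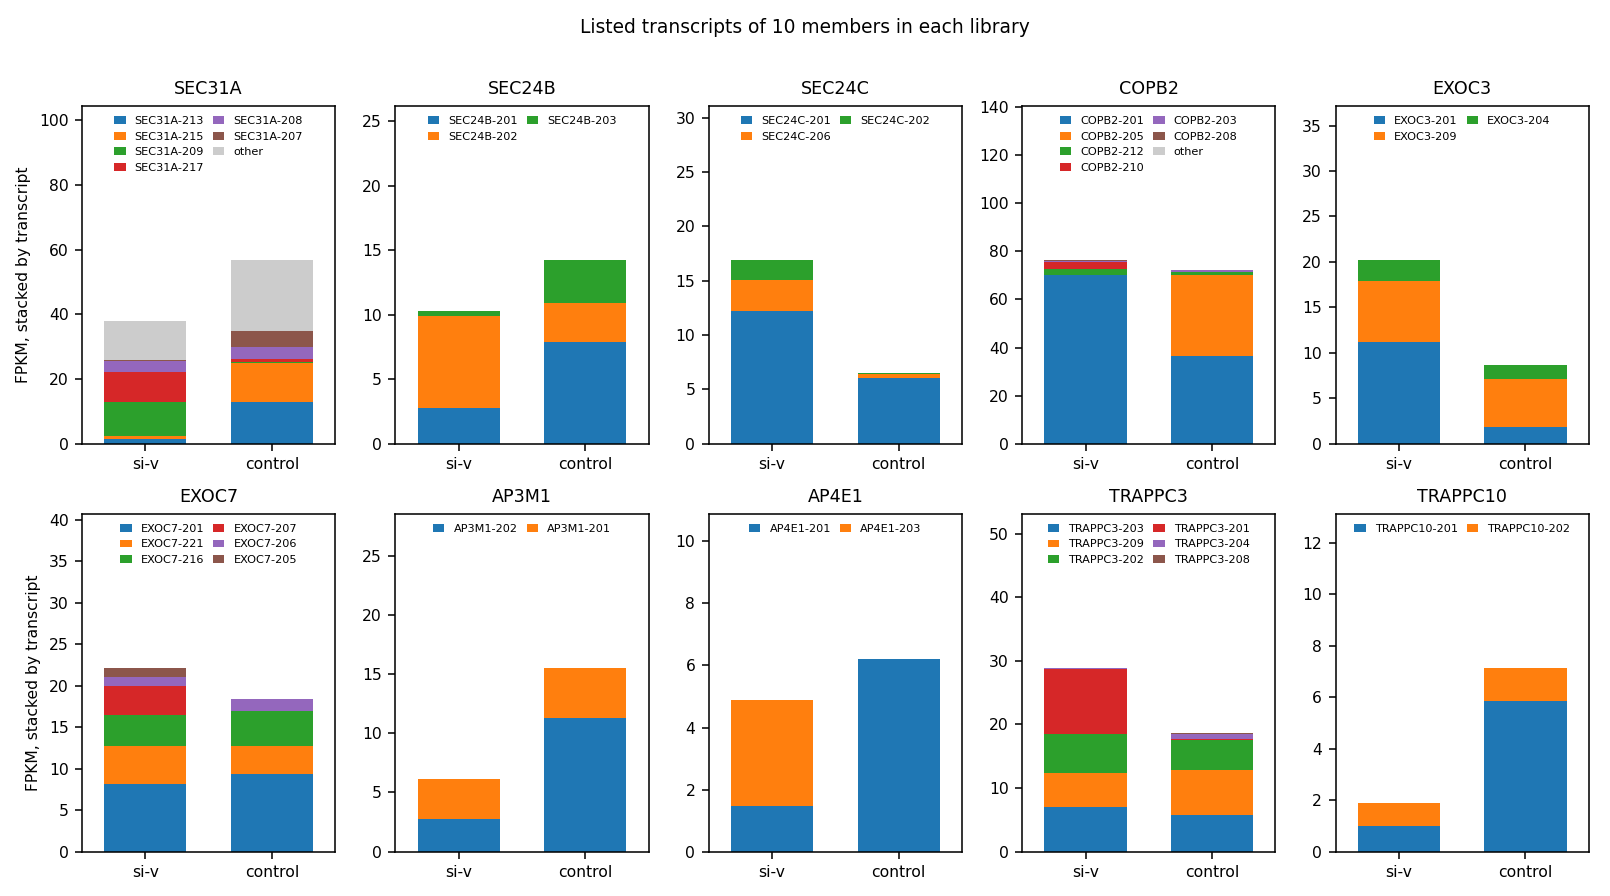
FPKM of the listed transcripts of 10 members, stacked, with the si-v library left of the control in each panel and 1 library per bar. Up to 6 transcripts are coloured and the rest are grey. The bars of COPB2 are of like height but differ in COPB2-205, while in SEC31A both height and division differ.

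For 55 coding exons in 22 members some listed transcripts held the exon and others skipped it whole, with at least 5 FPKM on these transcripts in each library. Such exons were not counted over all genes, so the counts here are no result about the members as a set. The share of FPKM on transcripts with the exon differed by under 5 percentage points for 38 of the 55 exons. It differed by 20 or more for 7, in SEC31A, SEC24B, EXOC7 and AP1B1. The sequences of 5 of these exons follow, 5′ to 3′ on the transcript strand, because they are stretches by which the transcripts whose shares differed can be told apart. They are from GENCODE release 29 transcripts, with the exon in capitals and 15 bases of the neighbouring exons in lower case.
SEC31A exon of 39 bases: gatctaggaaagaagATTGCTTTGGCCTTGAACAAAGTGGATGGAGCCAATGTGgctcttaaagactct
SEC31A exon of 78 bases: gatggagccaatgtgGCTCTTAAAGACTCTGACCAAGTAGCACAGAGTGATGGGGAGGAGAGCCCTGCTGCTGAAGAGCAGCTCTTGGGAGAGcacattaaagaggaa
SEC24B exon of 105 bases: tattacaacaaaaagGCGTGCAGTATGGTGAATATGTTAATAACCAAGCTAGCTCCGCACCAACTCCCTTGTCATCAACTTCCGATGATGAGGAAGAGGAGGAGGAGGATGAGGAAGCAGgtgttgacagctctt
EXOC7 exon of 69 bases: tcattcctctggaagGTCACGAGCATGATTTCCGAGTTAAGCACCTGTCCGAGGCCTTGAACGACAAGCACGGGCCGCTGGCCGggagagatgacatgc
AP1B1 exon of 106 bases: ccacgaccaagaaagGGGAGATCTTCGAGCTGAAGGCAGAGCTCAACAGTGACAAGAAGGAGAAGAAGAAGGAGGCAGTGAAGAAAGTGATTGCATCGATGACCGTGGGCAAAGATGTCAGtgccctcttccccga

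The SEC31A exons of 39 and 78 bases printed above follow each other in SEC31A-215, as the flanks show. Transcripts with the 39-base exon held 14.3 FPKM beside 20.1 on those without it in the si-v library (41.6%), and 36.9 beside 3.42 in the control (91.5%). For the 78-base exon the shares were 39.9% in the si-v library and 86.8% in the control. SEC31A-209, which lacks both, stood at 10.4 FPKM in the si-v library and 0.196 in the control, and SEC31A-217, which also lacks both, at 9.12 and 0.805. SEC31A-237 lacks both too but lay the other way, at 0.000985 and 2.36. SEC31A-215, which holds both, stood at 1.16 and 12.1. SEC31A-213, at 1.32 and 12.9, was counted neither with nor without these exons and adds nothing to their shares. Not every transcript with both exons was lower in the si-v library: SEC31A-226 stood at 3.53 and 1.62, and SEC31A-227 at 1.89 and 0.358. Another SEC31A exon of 39 bases and one of 93 bases, held by 1 and 2 listed transcripts, were at 4.18% and 6.34% in the si-v library and at 25.8% and 32.5% in the control.

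In SEC24B the exon of 105 bases was on transcripts with 3.15 FPKM in the si-v library and 11.2 in the control. SEC24B-202, which lacks it, stood at 7.17 and 3.06, so that the exon's share was 30.5% in the si-v library and 78.6% in the control. A SEC24B exon of 93 bases, held by SEC24B-203, lay just under the 20-point limit, at 4.06% in the si-v library and 23.4% in the control. The gene's own level was 10.3 and 14.3 FPKM, within 1.5-fold.

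The EXOC7 exon of 69 bases differed in the other direction, with a share of 44.0% in the si-v library and 19.8% in the control. EXOC7-207, which holds it, was at 3.46 FPKM in the si-v library and was listed at 0 in the control, and EXOC7-201, which skips it, was at 8.12 and 9.40. A further skippable EXOC7 exon of 93 bases had like shares, at 44.9% and 44.4%. The AP1B1 exon, whose length is no multiple of 3, was at 54.6% in the si-v library and 83.4% in the control, through AP1B1-205, which skips it, at 11.7 and 3.50 FPKM. In AP2B1, by contrast, the 42-base exon that AP2B1-221 skips was at 11.9% and 13.8%.

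**Figure D5:**
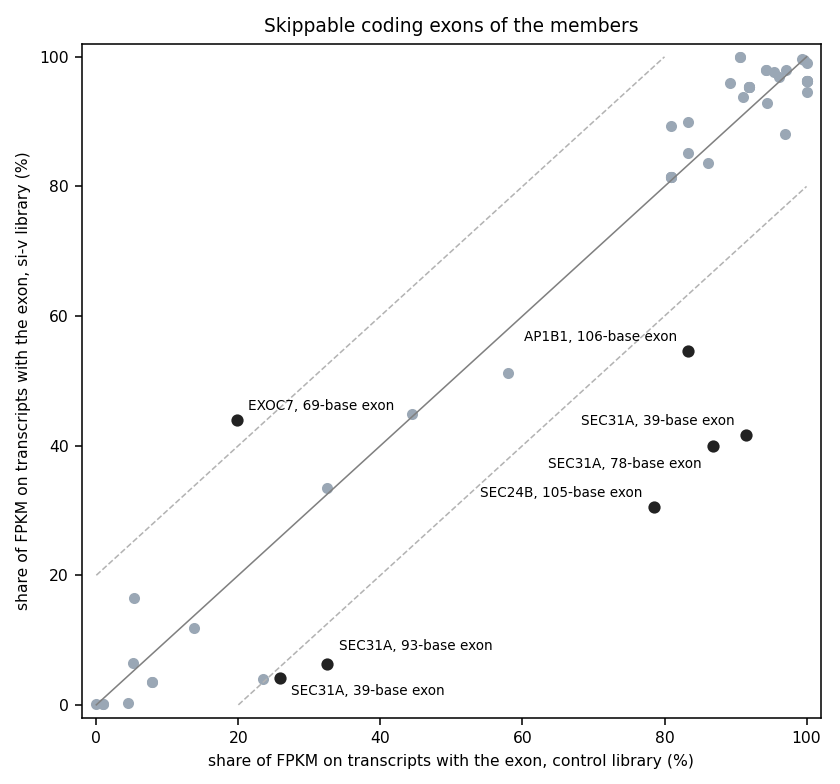
Share of FPKM, in %, on listed transcripts that hold a skippable coding exon, with the si-v library on the vertical and the control on the horizontal axis, for 55 exons of 22 members. Dashed lines mark a difference of 20 percentage points; the 7 black points beyond them are named, 6 with a lower share in the si-v library and EXOC7 with a higher one.

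Known partners of these complexes were set beside them. Of 77 partner genes 74 were past the filter, with a median of log2 -0.02, 2 higher at 1.5-fold, where 9.82% of all genes were, and 9 lower, where 8.91% were. Among COPII partners 6 of 8 were below 0, where 5478 of all 11046 genes were, with a median of -0.28. SAR1B, a GTPase that starts coat assembly, stood at 5.11 FPKM in the si-v library and 15.04 in the control (-1.39, but -0.41 on fragments per gene), and MIA3, the collagen export receptor, at 10.6 and 17.3 (-0.66, but -0.47 with the GC and length trend removed, short of 1.5-fold). SAR1B overlaps SEC24A on the opposite strand. PREB, which activates SAR1, had the highest ratio of that list, at 20.7 and 14.4 (0.50), but its most abundant transcript lay the other way, at -1.09. SEC13 stood at 48.4 and 40.1.

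Of 20 clathrin and adaptor partners 2 were higher at 1.5-fold and 1 lower. Clathrin light chain CLTB stood at 86.3 FPKM in the si-v library and 45.5 in the control (0.91, and 0.66 with the GC trend removed), beside the heavy chain CLTC at 93.4 and 81.2 and the light chain CLTA at 189 and 155. EPN1, an AP-2 partner in endocytosis, stood at 72.4 and 41.8 (0.78, but 0.50 with the trend removed, short of 1.5-fold), and NECAP1, which also binds AP-2, at 0.978 and 2.75 (-0.92). Of 12 COPI partners past the filter 1 was lower at 1.5-fold, ARF4, a small GTPase, at 35.9 and 55.5 (-0.62, but -0.52 with the trend removed, short of 1.5-fold), and ARF5 had the highest ratio, at 22.3 and 16.2. The KDEL receptors KDELR1 and KDELR2, which return ER proteins in COPI vesicles, stood at 76.5 and 51.1 FPKM in the si-v library and at 78.1 and 49.2 in the control.

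Of 19 tether and fusion genes past the filter 4 were lower at 1.5-fold, against 8.91% of all genes. GORASP2, a Golgi stacking protein, stood at 6.71 FPKM in the si-v library and 13.1 in the control (-0.87). The others were RALB, a GTPase that binds the exocyst, at 7.44 and 12.5 (-0.68), RAB1A, which TRAPP activates, at 25.2 and 40.7 (-0.67, but -0.50 with the trend removed, short of 1.5-fold), and VPS52 of the GARP tether at 4.97 and 8.24 (-0.63). RAB1B and RALA were level, at 126 and 48.9 FPKM in the si-v library and 127 and 48.4 in the control. GOLGA2, a Golgi matrix protein, had the highest ratio, at 78.4 and 53.5 (0.54, but 0.92 on fragments per gene, past 1.5-fold). Of 15 cargo receptors 1 was lower, ERGIC2 at 10.8 and 19.9 (-0.82), and SURF4 had the highest ratio, at 82.8 and 56.2 (0.55). ERGIC2 fell short of 1.5-fold on fragments per gene (-0.51), on its most abundant transcript (-0.41) and with the trend removed (-0.52).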

How the data were processed

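The deposited table gives a value per transcript in 2 libraries. Its header names no unit, and the authors' values were read as FPKM from their range and sums. The submitters' processing notes name cutadapt, HISAT2 2.0.5 and StringTie with hg19, without roles. Of annotation, filters and strand setting nothing is stated in these sources. Of 39605 transcript IDs, 99.5% were found, version numbers dropped, in GENCODE release 29; since its build differs, it served for symbols, chromosomes, lengths and sequences, not coordinates. FPKM were summed per gene, and log2 ratios used a pseudocount of 1 and genes of at least 1 FPKM in either library. Fragment numbers were approximated from a peak in the low values of single-transcript genes, about 8330000 in the si-v library and 7840000 in the control. Counting intervals are exact binomial (Clopper-Pearson) intervals at 95% on these. The fold rule and the counting interval were tested on simulated counts. The fragment estimate, the trend removal and the transcript and exon shares were not. Named genes were, per complex, the highest and lowest ratio, the highest level, and all at 1.5-fold; other members are given to account for each. Members and lists were chosen with earlier results of these data known, and the exon comparison after the values were seen. Scripts ran in Python 3.11.15 with SciPy 1.17.1.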

Additional observations from a re-analysis of the deposited data

How the results depend on the processing

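Counts and the median were recomputed under 8 alternatives, of which fragments per gene and removal of the GC and length trend were added after the data were seen. Members higher at 2-fold numbered 2 or 3 in each, where 2.03% to 6.33% of all genes were. Members lower at 2-fold were 5 with only a gene's most abundant transcript used, where 6.55% of all genes were. On fragments per gene 1 was lower, where 2.45% of all genes were, in place of 2. Members lower at 1.5-fold were 5 with a pseudocount of 0.1, where 12% of all genes were, and 5 with equal upper quartiles, where 9.39% were. With the most abundant transcript they were 7, where 14.4% of all genes were. These stand in place of 3, where 8.91% of all genes were. Members higher at 1.5-fold were 3 with the trend removed, where 7.34% of all genes were, in place of 8, where 9.82% were. Why the counts moved was not tested. The trend removal takes out only a smooth trend fitted over all genes. Among the members the Spearman correlation of GC content and ratio was still 0.34 after it, and that over all genes was not computed. The median stayed between -0.04 and 0.00. Of the 11 members at 1.5-fold, 6 kept direction and 1.5-fold in all alternatives, namely SEC24C, EXOC3, TRAPPC1, TRAPPC10, AP3M1 and AP3S1. Alternatives that only changed the filter leave a gene's ratio as it is, and centring on the median shifts every ratio alike by a small amount. Those alternatives could thus hardly move these 6. The share of all genes at 1.5-fold that kept it was not computed. The most abundant transcript of SEC31A, SEC31A-213, gave log2 -2.59, that of AP4E1 -1.54 and that of SEC24B -1.25, against -0.57, -0.29 and -0.43 for the genes. That of SEC23B gave -0.40, that of EXOC7 -0.19 and that of AP2S1 -0.13, on the other side of 0 from the genes at 0.19, 0.25 and 0.42. No paired analysis was possible because each group has 1 library. Among the 73 members the lowest number of fragments behind a level was about 35, so ratios of genes such as AP1G2 (counting interval -0.67 to 0.74) are loose.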
